A study of Rattus norvegicus with 12 samples.

Results

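The genes described here encode subunits of respiratory complex III (cytochrome bc1) and complex IV (cytochrome c oxidase), cytochrome c, and subunits of ATP synthase. Members were all probe sets that the array's annotation pairs with exactly 1 gene symbol, where that symbol starts with Uqcr, Cox4, Cox5, Cox6, Cox7, Cox8 or Atp5, or equals Cyc1 or Cycs. This rule gave 48 of 27342 probe sets, which stand for 40 genes: 7 of complex III, 1 of cytochrome c, 16 of complex IV and 16 of ATP synthase. The 16 of complex IV include the pseudogene Cox6c-ps1 and the supercomplex factor gene Cox7a2l. Those of ATP synthase include Atp5if1, the gene of its inhibitory factor. Cyc1, Cox7a1 and Cox6b1 were not analysed here.

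RNA came from monolayers of heart cells of 2-day-old Sprague-Dawley rat pups, plated on coverslips and grown for 3 days before treatment. The 6 DEHP cultures then received 50 µg/mL of di(2-ethylhexyl) phthalate, a plasticizer of flexible medical plastics, in 0.1% DMSO for 3 days. The 6 control cultures received 0.1% DMSO for the same time, so both groups carry the vehicle. Each culture was read on 1 array, labelled a biological replicate, and all cells came from 1 litter, so p-values measure the spread between cultures of that litter. No count or brightness is given, and the number of arrays limits the precision.

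Electrons from the earlier complexes pass through ubiquinol to complex III, then by cytochrome c to complex IV, which reduces oxygen. The proton gradient built on the way drives ATP synthase. The catalytic centres of complexes III and IV lie partly in subunits encoded by mitochondrial DNA, which were not among the genes analysed here. The nuclear genes described here supply the Rieske iron-sulfur subunit of complex III and matrix-facing, membrane and small supernumerary subunits. Complex IV has several subunits with more than 1 isoform gene. Heart and skeletal muscle use dedicated forms of subunits 6a, 7a and 8, and the heart, which lives mainly on oxidative metabolism, is among the tissues richest in these complexes.

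Under DEHP these genes did not move in 1 direction. Of the 48 probe sets, 9 (18.8%) were higher and 12 (25%) lower by limma at an adjusted p under 0.05. Among all probe sets 10.5% were higher and 7.82% lower, and among those with 1 gene symbol 14.3% were higher and 10.1% lower. Counted by gene, 8 rose, 9 fell and 23 did not pass, with a median log2 fold (DEHP over control) of 0.03 over the 40 genes against −0.02 over all genes with 1 symbol. The changes were small. Of the 17 genes that passed, 1 reached a fold of 1.5 (5.88%), against 806 of 3527 genes that passed on the whole array (22.9%). The groups did not overlap in 10 of the 48 probe sets (20.8%), against 16.8% of the probe sets with 1 symbol.

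**Figure D1:**
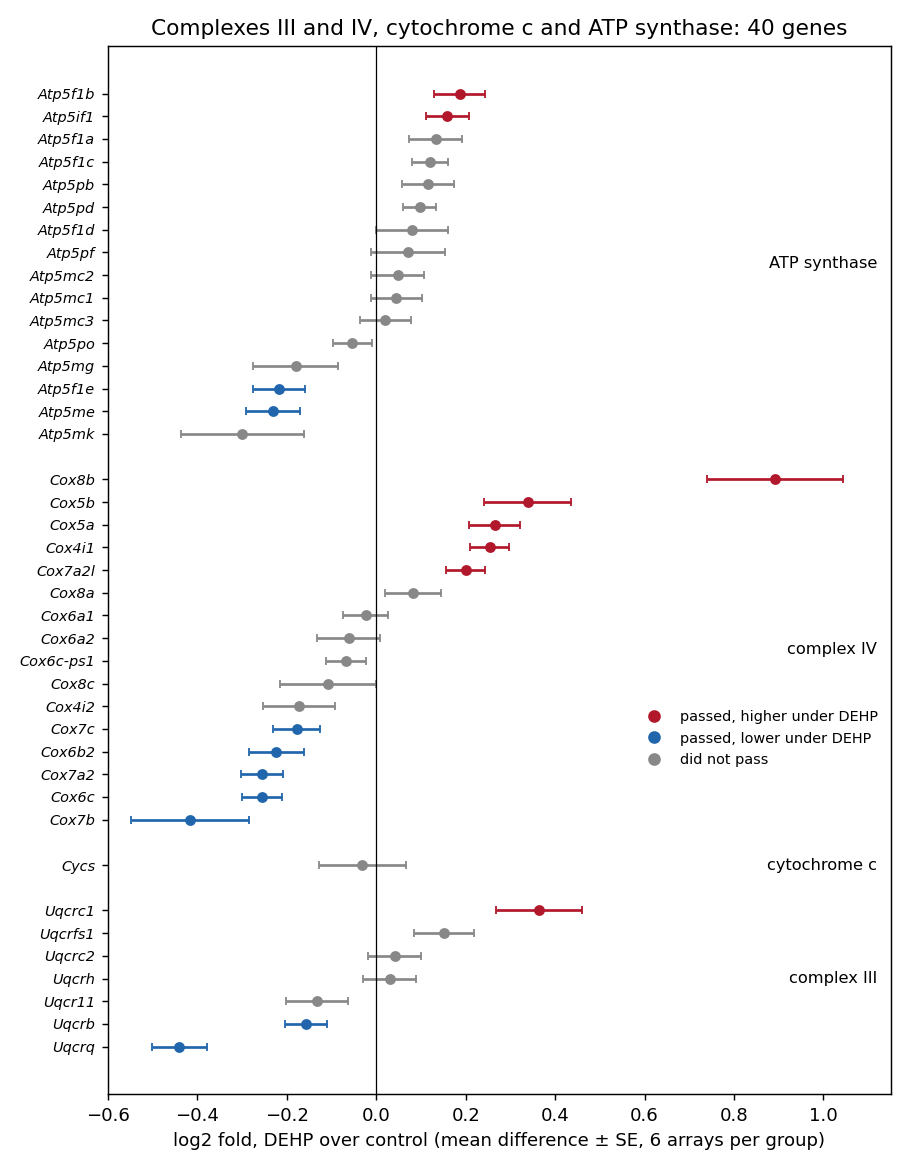
Log2 fold of DEHP over control for the 40 genes, grouped by complex, as the difference of means ± SE from limma with 6 arrays per group. Red points passed and were higher, blue points passed and were lower, and grey points did not pass; Cox8b at 0.89 lies apart from the other genes, which run from −0.44 to 0.36.

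Control replicate 5 and DEHP replicate 6 stood apart on the whole array, where the SD over all log2 values of an array was 0.37 and 0.27, and lay between 0.15 and 0.19 on each other array. Control replicate 5 held the lowest of the 12 values in 12 of the 40 genes and DEHP replicate 6 in 13. DEHP replicate 3 held the highest in 12 genes and control replicate 1 in 10. Over the 40 genes alone the SD was 0.25 on control replicate 5 and 0.15 on DEHP replicate 6. It lay between 0.11 and 0.21 on each other array, so DEHP replicate 6 did not stand apart in these genes by SD. With both left out, 9 member probe sets were higher and 13 lower. With single arrays left out the count of higher probe sets ran from 6 to 13 and that of lower ones from 6 to 15. The lower count fell from 12 to 7 without control replicate 1, control replicate 3, DEHP replicate 2, DEHP replicate 4 or DEHP replicate 5, and to 6 without control replicate 6. Some genes have several probe sets in these counts. By gene, the lower count went from 9 to 6 in the former fits and to 5 without control replicate 6. Of the 17 genes that passed, 10 passed in all 19 alternative fits at the same threshold, namely Cox8b, Uqcrc1, Cox5a, Cox4i1, Cox7a2l, Atp5f1e, Atp5me, Cox7a2, Cox6c and Uqcrq.

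**Figure D2:**
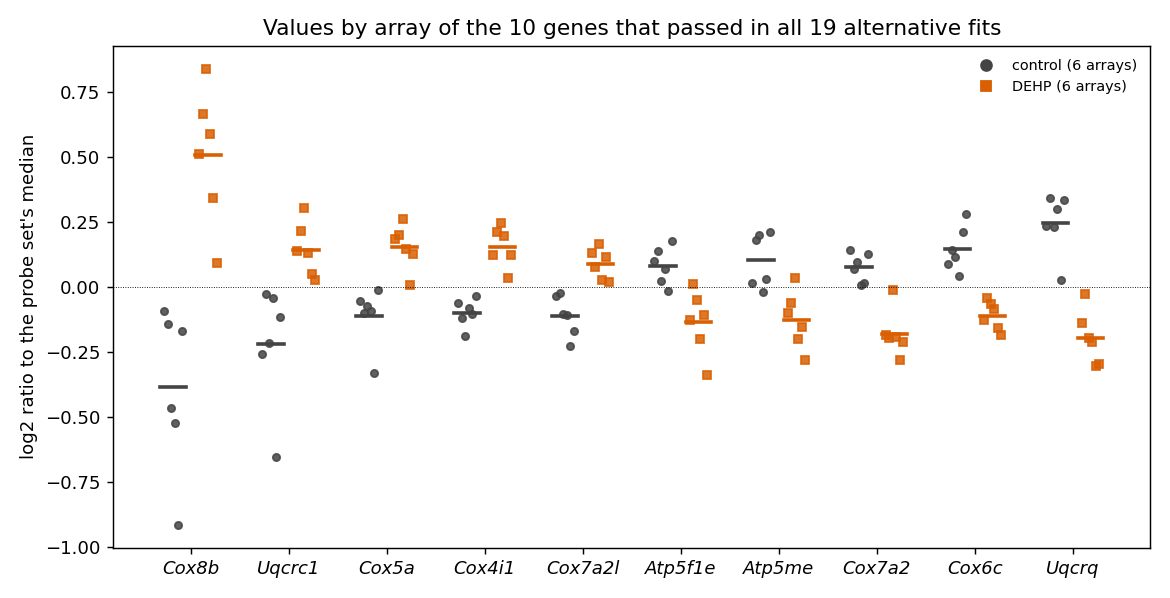
Log2 ratio to the probe set's median over the 12 arrays, for the 10 genes that passed in all 19 alternative fits at an adjusted p under 0.05. Each point is 1 array and each line a group mean; the groups do not overlap in these genes except in Atp5f1e and Atp5me.

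Upstream sequence of 4 members is shown for the gene with the largest rise (Cox8b), for that with the largest fall (Uqcrq), and for another 2 that rose and hold an ETS or NRF1 site (Cox5b and Uqcrc1). Of the 40 genes, 33 had an entry in the RefSeq promoter table of build GRCr8, in windows of 300 bases, and Atp5pd, Cox4i2, Cox6a1, Cox6c, Cox6c-ps1, Uqcr11 and Uqcrb had none. These windows were searched on both strands for the core site of nuclear respiratory factor 1, NRF1 (GCGCATGCG), the ETS site bound by GABPA (CCGGAAGT), the site of estrogen-related receptors (TNAAGGTCA) and the CCAAT box. NRF1 and GABPA are textbook activators of respiratory chain genes. Each line gives the 250 bases before the gene's start, 5′ to 3′ on the gene's strand, with matches in capitals.
Cox8b, GRCr8 chr1:205408274-205408523, minus strand: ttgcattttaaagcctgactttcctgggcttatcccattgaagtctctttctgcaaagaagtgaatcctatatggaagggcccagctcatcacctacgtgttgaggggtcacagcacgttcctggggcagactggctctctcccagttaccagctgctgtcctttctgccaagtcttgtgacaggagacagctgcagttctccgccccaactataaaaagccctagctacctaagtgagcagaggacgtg
Uqcrq, GRCr8 chr10:38089979-38090228, minus strand: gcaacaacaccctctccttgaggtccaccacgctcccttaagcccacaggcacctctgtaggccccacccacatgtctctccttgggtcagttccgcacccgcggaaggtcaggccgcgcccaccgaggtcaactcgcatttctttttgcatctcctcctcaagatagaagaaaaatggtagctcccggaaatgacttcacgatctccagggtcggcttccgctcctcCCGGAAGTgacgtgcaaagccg
Cox5b, GRCr8 chr9:46417587-46417836, plus strand: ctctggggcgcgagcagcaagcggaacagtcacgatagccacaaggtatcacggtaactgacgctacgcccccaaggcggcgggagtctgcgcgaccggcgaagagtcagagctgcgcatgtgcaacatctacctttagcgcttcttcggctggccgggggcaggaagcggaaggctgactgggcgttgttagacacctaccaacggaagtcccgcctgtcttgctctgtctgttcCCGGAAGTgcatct
Uqcrc1, GRCr8 chr8:118467973-118468222, plus strand: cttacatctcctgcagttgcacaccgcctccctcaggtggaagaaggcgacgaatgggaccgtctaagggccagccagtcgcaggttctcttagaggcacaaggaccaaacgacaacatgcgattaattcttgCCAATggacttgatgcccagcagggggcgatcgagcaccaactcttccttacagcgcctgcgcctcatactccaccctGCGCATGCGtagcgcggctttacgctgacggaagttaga
No searched motif was found in the window of Cox8b. The capitals in Uqcrq and in Cox5b are an ETS site, and those in Uqcrc1 are a CCAAT box followed by an NRF1 core. The NRF1 core was found in 6 of the 33 member promoters (18.2%) against 1.52% of all 33469 promoters, and the ETS site in 5 (15.2%) against 3.81%. The site of estrogen-related receptors was found in 1 (3.03%) against 1.2%, and the CCAAT box in 13 (39.4%) against 37.5%. Only matches to the exact letters searched were counted, so a site that differs by a base was missed. By that count an ETS site occurred in 1 of 8 promoters of genes that rose and in 1 of 7 of genes that fell. An NRF1 core likewise occurred in 1 of 8 and 1 of 7. Among the 18 promoters of genes that did not pass, 3 held an ETS site (16.7%) and 4 an NRF1 core (22.2%). Median GC content was 56% in member promoters and 51.7% in all promoters, which bears on matches to GC-rich motifs.

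In complex III, 1 gene rose, 2 fell and 4 did not pass. The share that passed was 42.9% of only 7 genes, against 24.6% of all genes with 1 symbol. Uqcrc1 encodes a core protein on the matrix side. On the log2 scale, relative to the median of its 12 values, it ran from −0.65 to −0.03 in controls (median −0.17) and from 0.03 to 0.30 under DEHP (median 0.13). The groups did not overlap, and the lowest control was replicate 5. Uqcrc1 was 1.29-fold higher (log2 fold 0.36 ± 0.10 SE, n = 6 per group, limma adjusted p = 0.0178), and 0.28 without control replicate 5. Uqcrq encodes a small membrane subunit. It ran from 0.03 to 0.34 in controls (median 0.27) and from −0.30 to −0.03 under DEHP (median −0.20). Every DEHP value was thus below every control value, and Uqcrq was 1.36-fold lower (−0.44 ± 0.06, adjusted p = 0.000248), the largest fall among the 40 genes.

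Uqcrb, which encodes another small subunit, has 3 probe sets whose values differed by at most 0.07 within an array, and all 3 were lower. The lowest-numbered ran from −0.03 to 0.13 in controls (median 0.08) and from −0.18 to 0.09 under DEHP (median −0.12). The groups overlapped through DEHP replicate 3. Its log2 fold was −0.16 ± 0.05 (limma adjusted p = 0.0332), and among fits with 1 array left out the call held only in those without control replicates 2, 4 or 5 or DEHP replicate 3. Over all 12 fits with 1 array left out it ran from −0.19 to −0.14, with adjusted p up to 0.071. The call was also lost with quantile normalization (adjusted p = 0.056), with array weights (−0.11, adjusted p = 0.089) and without control replicate 5 and DEHP replicate 6 together (adjusted p = 0.068). Another Uqcrb probe set kept the call with quantile normalization, without DEHP replicate 6 and without both arrays, but none did with array weights. The other core protein gene, Uqcrc2, the Rieske subunit gene Uqcrfs1, the hinge subunit gene Uqcrh and the small subunit gene Uqcr11 did not pass, with log2 folds of 0.04, 0.15, 0.03 and −0.13. That of Uqcr11 was −0.08 without DEHP replicate 6. Probe sets of Uqcrb may read near-identical copies of the gene, so the 3 are not independent measurements.

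Cycs encodes somatic cytochrome c, the carrier between the complexes. Its first probe set ran from −0.40 to 0.22 in controls and from −0.25 to 0.10 under DEHP, with medians of 0.06 and −0.01. The lowest value of each group came from replicate 5. The log2 fold was −0.03 ± 0.10 (limma adjusted p = 0.87, 95% interval −0.24 to 0.18), so a change of the size seen in Uqcrb would lie within the interval.

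Complex IV held the largest rise of the 40 genes, with 5 genes higher, 5 lower and 6 not passing. The share that passed was 62.5% (31.2% higher and 31.2% lower), against 24.6% of all genes with 1 symbol (14.4% and 10.2%). The 10 that passed became 6 without control replicate 6, where 4 were higher and 2 lower. Cox8b, the muscle isoform of the small subunit 8, ran from −0.91 to −0.09 in controls (median −0.32) and from 0.09 to 0.84 under DEHP (median 0.55). The groups did not overlap; control replicate 5 was lowest and DEHP replicate 3 highest. Cox8b was 1.85-fold higher (log2 fold 0.89 ± 0.15, n = 6 per group, limma adjusted p = 0.00101). It was the only member that passed against a minimum fold of 1.2 (adjusted p = 0.018, limma's treat). Cox8a, the general isoform of the same subunit, ran from −0.23 to 0.08 in controls (median −0.01) and from −0.11 to 0.16 under DEHP (median 0.03), and did not pass (0.08 ± 0.06, adjusted p = 0.43).

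Cox4i1, Cox5a and Cox5b, which encode subunits that reach into the matrix or lie on it, rose. Cox4i1 is the general form of subunit 4, a site of regulation by ATP. It ran from −0.19 to −0.03 in controls (median −0.09) and from 0.03 to 0.25 under DEHP (median 0.16), with no overlap. Its log2 fold was 0.25 ± 0.04 (limma adjusted p = 0.000937). Cox5a ran from −0.33 to −0.01 in controls (median −0.08) and from 0.01 to 0.26 under DEHP (median 0.16). Its 6 DEHP values lay above all controls (0.26 ± 0.06, adjusted p = 0.00533), and its other probe set gave 0.27. Cox5b, the zinc-binding subunit, ran from −0.49 to 0.03 in controls (median −0.11) and from −0.11 to 0.36 under DEHP (median 0.18). Its groups overlapped through DEHP replicate 5, and its log2 fold of 0.34 ± 0.10 (adjusted p = 0.0283) lost the call without control replicates 3 or 6 or DEHP replicates 1, 2, 3 or 4. Over all 12 fits with 1 array left out it ran from 0.27 to 0.40, with adjusted p up to 0.067.

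Cox7a2l, whose product helps to join complexes III and IV into supercomplexes, rose without overlap (0.20 ± 0.04, limma adjusted p = 0.00536). Cox7a2, the general isoform of the related subunit 7a, fell. It ran from 0.01 to 0.14 in controls (median 0.08) and from −0.28 to −0.01 under DEHP (median −0.19). No DEHP value reached the controls, and the log2 fold was −0.26 ± 0.05 (adjusted p = 0.00152). Cox6c, a small transmembrane subunit, ran from 0.04 to 0.28 in controls (median 0.13) and from −0.18 to −0.04 under DEHP (median −0.11). It also fell without overlap (−0.26 ± 0.05, adjusted p = 0.00126). The probe set of its pseudogene Cox6c-ps1 did not pass (−0.07 ± 0.04).

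The other falls in complex IV were those of Cox7b, Cox6b2 and Cox7c, with overlapping groups. Cox7b, a small transmembrane subunit, was the most spread of them. It ran from −0.32 to 0.56 in controls (median 0.22) and from −0.49 to 0.03 under DEHP (median −0.19). Its lowest control was replicate 5, and its log2 fold was −0.42 ± 0.13 (limma adjusted p = 0.0463). Among fits with 1 array left out the call held only in those without control replicate 5, DEHP replicate 1 or DEHP replicate 3, and was lost with each array centred on its median. With 1 array left out it ran from −0.52 to −0.34, with adjusted p up to 0.096. Cox6b2, the testis form of subunit 6b, ran from −0.09 to 0.25 in controls (median 0.17) and from −0.23 to 0.003 under DEHP (median −0.06), at −0.22 ± 0.06 (adjusted p = 0.0234). The ratios hold no levels, so whether the signal of this testis form was dim could not be checked. Cox6b2 lost the call without control replicate 4 (−0.22) or control replicate 6 (−0.20), with adjusted p up to 0.056. Cox7c was at −0.18 ± 0.05 (adjusted p = 0.0312). Among such fits it held only in those without control replicates 2, 4 or 5 or DEHP replicates 1 or 6; it was lost with median centring, and ran from −0.20 to −0.15 with adjusted p up to 0.072. Cox8c, the testis form of subunit 8, did not pass (−0.11 ± 0.11), and control replicate 5 had its highest value, 0.59, without which the log2 fold was −0.01.

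**Figure D3:**
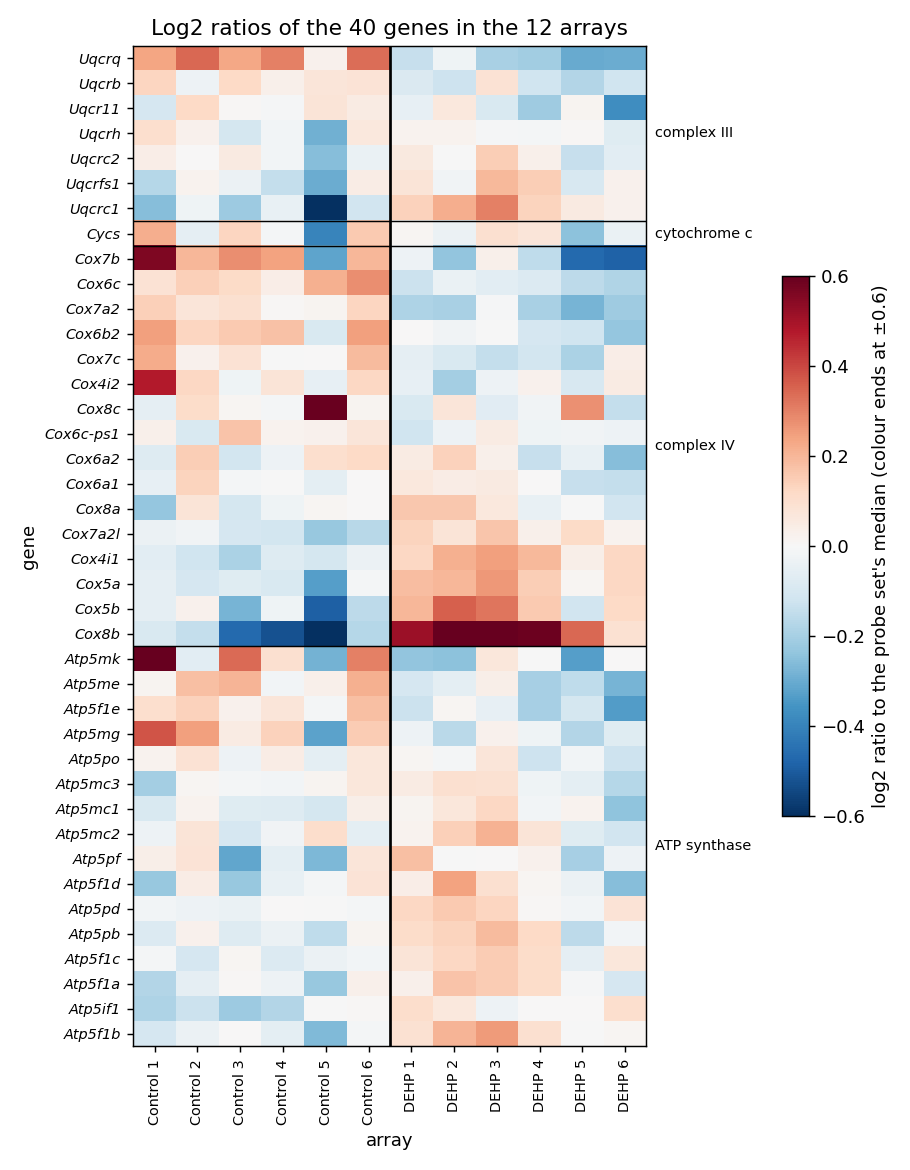
Log2 ratio to the probe set's median for each of the 40 genes (rows, by complex) on each of the 12 arrays (columns), red above and blue below the median, with the colour scale ending at ±0.6. Cox8b is blue in all 6 controls and red in all 6 DEHP arrays, and control replicate 5 is dark in Uqcrc1, Cox5b, Cox8b and Cox8c.

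The muscle and general isoforms were then set against each other within each array, as the log2 ratio of the tissue-restricted form minus that of the general form. For 5 pairs both genes were measured. They include Atp5mc1 minus Atp5mc2 and Atp5mc1 minus Atp5mc3, pairs of subunit c genes that do not set a tissue-restricted against a general form. The groups were compared by a two-sided exact permutation test over all 924 splits, whose smallest p is 0.00216, adjusted over the 5 pairs. Cox8b minus Cox8a ran from −0.92 to 0.14 in controls and from 0.21 to 0.78 under DEHP. The groups did not overlap, and the difference between them was 0.81 (95% interval 0.48 to 1.14 from limma, exact p = 0.00216, adjusted p = 0.00541). The muscle form of subunit 8 therefore rose relative to the general form. For subunit 6a the groups overlapped. Cox6a2, its muscle form, ran from −0.11 to 0.15 in controls (median 0.03) and from −0.26 to 0.14 under DEHP (median −0.01). Cox6a1, its general form, ran from −0.06 to 0.13 in controls (median −0.01) and from −0.14 to 0.06 under DEHP (median 0.02). The difference for Cox6a2 minus Cox6a1 was −0.04 (95% interval −0.16 to 0.09, exact adjusted p = 0.67), so a relative change as large as that of Cox8b lay outside its interval.

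Cox4i2, the isoform of subunit 4 known from lung and low oxygen, ran from −0.05 to 0.48 in controls (median 0.10) and from −0.20 to 0.05 under DEHP (median −0.04). It did not pass on its own (−0.17 ± 0.08, limma adjusted p = 0.18). Its highest value was that of control replicate 1, without which the log2 fold was −0.10. Cox4i2 minus Cox4i1 ran from 0.05 to 0.54 in controls and from −0.42 to −0.07 under DEHP, without overlap. The difference was −0.43 (95% interval −0.60 to −0.25, exact p = 0.00216, adjusted p = 0.00541). A difference within an array shows unequal change only, and levels of the isoforms cannot be compared, since each probe set is scaled to its own median.

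**Figure D4:**
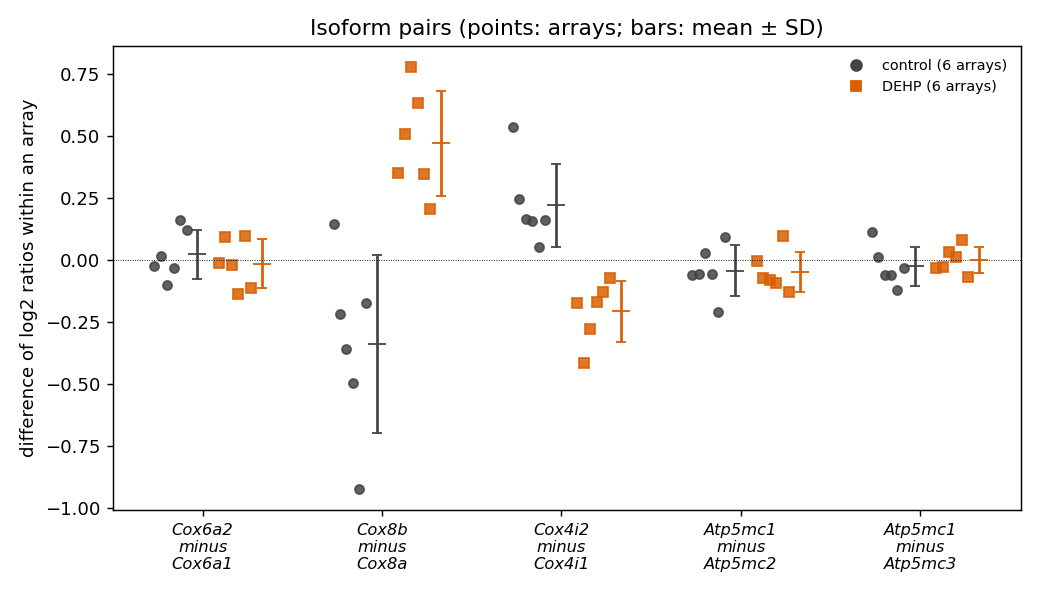
Difference of log2 ratios between the genes of each pair within an array, for 6 control (circles) and 6 DEHP arrays (squares), with mean ± SD beside the points. The groups are apart for Cox8b minus Cox8a and for Cox4i2 minus Cox4i1 and overlap for the other 3 pairs.

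In ATP synthase 2 genes rose, 2 fell and 12 did not pass. Thus 4 of its 16 genes passed (25%), near the 24.6% of all genes with 1 symbol. The number that passed was 8 with array weights and 7 without DEHP replicate 5, but 2 without control replicates 1, 2 or 4 or DEHP replicates 1, 2 or 4. No test of the difference between complexes was made. Atp5f1b, the catalytic beta subunit of F1, ran from −0.26 to 0.002 in controls (median −0.04) and from −0.002 to 0.26 under DEHP (median 0.09). The groups overlapped only through control replicate 3 and DEHP replicate 5, and its log2 fold was 0.19 ± 0.06 (limma adjusted p = 0.0399). Atp5if1, the inhibitor that keeps the enzyme from running backwards, ran from −0.22 to 0.01 in controls (median −0.15) and from −0.03 to 0.11 under DEHP (median 0.03), at 0.16 ± 0.05 (adjusted p = 0.0359). With 1 array left out, the call of Atp5f1b held only in the fits without control replicates 3 or 6 or DEHP replicates 5 or 6, and its log2 fold ran from 0.15 to 0.21 with adjusted p up to 0.089. That of Atp5if1 held only in those without control replicates 5 or 6 or DEHP replicates 3 or 5, and its log2 fold ran from 0.14 to 0.18 with adjusted p up to 0.085.

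Atp5f1e, the small epsilon subunit of the central stalk, fell. It ran from −0.01 to 0.18 in controls (median 0.09) and from −0.34 to 0.01 under DEHP (median −0.12), at −0.22 ± 0.06 (limma adjusted p = 0.018). Atp5me, a membrane accessory subunit, ran from −0.02 to 0.21 in controls (median 0.10) and from −0.28 to 0.03 under DEHP (median −0.13). Its log2 fold was −0.23 ± 0.06 (adjusted p = 0.018). The groups of both genes overlapped slightly, and DEHP replicate 6 was lowest in both. The accessory subunit genes Atp5mg (−0.18 ± 0.10) and Atp5mk (−0.30 ± 0.14) did not pass with all arrays. Control replicate 5 was lowest of the controls in both, and without it their log2 folds were −0.27 and −0.39, with adjusted p of 0.00651 and 0.0351.

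The 3 genes of subunit c, which encode the same mature ring protein, did not pass. Atp5mc1 ran from −0.11 to 0.03 in controls (median −0.08) and from −0.24 to 0.13 under DEHP (median 0.02). Atp5mc2 ran from −0.10 to 0.10 (median −0.02) and from −0.11 to 0.21 (median 0.05), and Atp5mc3 from −0.20 to 0.07 (median 0) and from −0.17 to 0.10 (median 0.01). Their log2 folds lay between 0.02 and 0.05. Atp5mc1 differed from Atp5mc2 by −0.003 (95% interval −0.12 to 0.12, exact adjusted p = 0.96) and from Atp5mc3 by 0.02 (−0.07 to 0.12, exact adjusted p = 0.67). The F1 genes Atp5f1a (0.13), Atp5f1c (0.12) and Atp5f1d (0.08) and the peripheral stalk genes Atp5pb (0.12), Atp5pd (0.10), Atp5pf (0.07) and Atp5po (−0.05) also did not pass. Atp5f1c was nearest to the threshold, with an adjusted p of 0.054.

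Genes that work with these complexes were counted from fixed lists. Of 30 measured assembly and partner genes, 8 rose, 3 fell and 19 did not pass, with a median log2 fold of 0.12. The share that passed was 36.7%, against 24.6% of all genes with 1 symbol, and nothing about the list is read from it. Cox15, an enzyme of heme A synthesis for complex IV, rose by 0.47 ± 0.06, Lrpprc, which stabilizes mitochondrial messengers, by 0.50 ± 0.07, Coa7, a complex IV assembly factor, by 0.28 ± 0.04, and Taco1, a translational activator of the first complex IV subunit, by 0.33 ± 0.06. The 3 that fell were Slirp (−0.33 ± 0.07), the partner of Lrpprc, Ndufa4 (−0.21 ± 0.05), now assigned to complex IV, and Uqcc2 (−0.23 ± 0.06), a complex III assembly factor; they were chosen after their values were seen. The list of regulators of respiratory gene transcription held 16 measured genes, among them Twnk and Polg, which serve mitochondrial DNA replication. Of the 16, 4 rose and 12 did not pass, a share of 25% that is near the 24.6% of all genes. Those that rose were the coactivators Ppargc1a (0.85 ± 0.11) and Ppargc1b (0.66 ± 0.08), the receptor gene Esrrg (0.64 ± 0.08) and the mitochondrial helicase gene Twnk (0.42 ± 0.08). Among the 12 that did not pass were Nrf1 (0.02 ± 0.04), Gabpa (0.18 ± 0.12), Esrra (0.04 ± 0.06) and Esrrb (−0.07 ± 0.09). They are named because sites of their products were searched in the promoters. Each of the 8 named as rising had a limma adjusted p of at most 0.00304.

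For complex I, the entry point upstream, the 37 genes whose symbol starts with Nduf were counted. These include the assembly factor genes Ndufaf1, Ndufaf3 and Ndufaf4, the pseudogene Ndufs6-ps1, and Ndufa4, which counts in both lists. Of the 37, 5 were higher, 4 lower (Ndufa4 among them) and 28 did not pass, at a median of −0.0007. The 24.3% that passed lie near the 24.6% of all genes with 1 symbol. In complex II, 1 of 4 genes rose and none fell, so 25% passed. Among 15 genes of mitochondrial membranes and matrix 5 rose and 1 fell, so 40% passed. Every measured marker of smooth muscle and myofibroblasts fell (9 of 9), with a list mean on the log2 scale from 0.60 to 0.76 in controls and from −1.18 to −0.59 under DEHP. Of 12 cardiomyocyte markers 3 rose and 4 fell, with a list mean from −0.16 to 0.08 in controls and from −0.35 to 0.24 under DEHP. Of 10 fibroblast markers 3 rose and 6 fell, with a list mean from 0.05 to 0.19 in controls and from −0.41 to −0.09 under DEHP. Of 7 endothelial markers 3 rose and 1 fell, of 8 leukocyte markers 2 rose and 1 fell, and of 9 skeletal muscle markers 1 rose and 2 fell. The share that passed was 100% of smooth muscle and myofibroblast, 58.3% of cardiomyocyte and 90% of fibroblast markers. It was 57.1% of endothelial, 37.5% of leukocyte and 33.3% of skeletal muscle markers, against 24.6% of all genes with 1 symbol. The part of these cell types in the changes of the respiratory genes was not tested. In bulk RNA, fewer cells of a type and less RNA per cell cannot be told apart, and the ratios hold no levels by which the labelled cell type could be checked.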

How the data were processed

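RNA of 12 cultures was measured on 1 Affymetrix array each. Per the submitters' processing notes the authors used RMA (version not named). The values they deposited are ratios on a linear scale, and the median of each probe set's 12 log2 ratios lay within 1e-04 of 0 for all 27342 probe sets, so levels are not held in them and a filter on dim probe sets could not be run. The genome build and any step after RMA are not given in the sources used here.

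Log2 of the deposited ratio was used without further scaling. DEHP was compared with control over all 12 arrays by limma 3.58.1 (R 4.3.3, lmFit and eBayes, two-sided), with Benjamini-Hochberg adjustment over all 27342 probe sets and adjusted p under 0.05 as the threshold. The limma and permutation code was tested on simulated data. Log2 folds are given ± SE. Isoform pairs were compared by an exact permutation test. A gene with several probe sets took the lowest-numbered one. With all arrays as deposited, no such gene had probe sets with different calls. Of the probe sets, 15097 had 1 symbol. The 40 members matched RefSeq gene entries, with 0 symbols changed.

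Passing members are given with log2 fold, SE and adjusted p, and values by group are given for members of isoform pairs and for up to 4 rises and 4 falls per complex. Of the other lists, the 4 genes with the smallest p could be named. Genes of factors whose sites were searched were named as well. The members and lists were chosen with earlier results of these data known. Same-numbered samples correlated at 0.07 to 0.77 in their deviations, and the labels give the numbers no meaning, so samples were not paired. Alternatives were quantile normalization, median centring, array weights, robust eBayes, the replicate block, probe sets with 1 symbol alone, an adjusted p under 0.01, limma's treat at a fold of 1.2, and arrays left out. Plots were drawn with matplotlib 3.10.9.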

Additional observations from a re-analysis of the deposited data

Results flagged for a closer look

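In 12 of 90 groups of 6 arrays, the highest or lowest value lay far from the nearest of the others by Dixon's criterion at 95%, where chance flags about 1 in 20 groups. Control replicate 5 accounted for 6 of them. It was lowest among controls for Cox5a (−0.33, nearest −0.10), Cox6b2 (−0.092, nearest 0.13), Uqcrc1 (−0.65, nearest −0.26), Uqcrc2 (−0.25, nearest −0.04) and Uqcrq (0.026, nearest 0.23), and highest for Cox8c (0.59, nearest 0.11). Control replicate 1 was lowest for Atp5mc3 (−0.20, nearest −0.02) and highest for Cox4i2 (0.48, nearest 0.13). Control replicate 2 was highest for Cox6a1 (0.13, nearest 0.001). Under DEHP, replicate 3 was highest for Cox7a2 (−0.0090, nearest −0.18) and Uqcrb (0.085, nearest −0.09), and replicate 6 was lowest for Uqcrh (−0.071, nearest −0.01). The calls of Cox5a, Uqcrc1, Uqcrq and Cox7a2 held with each of these arrays left out. That of Uqcrb was not lost without DEHP replicate 3, and that of Cox6b2 not without control replicate 5.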

How the results depend on the processing

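Of the 17 genes that passed, 10 passed in all 19 alternative fits, 7 lost the call in at least 1, and 0 changed sign. Of the 23 others, 6 passed in at least 1 alternative. The higher member probe sets numbered 9 as deposited and 14 with array weights, and the lower ones 12 and 10. At an adjusted p under 0.01, 5 and 4 remained (Cox4i1, Cox5a, Cox7a2l and Cox8b; Cox6c, Cox7a2 and Uqcrq), and against a fold of 1.2 by limma's treat 1 and 0, with Uqcrq the 1 lower at an unadjusted p under 0.05 (adjusted p = 0.14). With single arrays left out the counts ran from 6 to 13 and from 6 to 15. The replicate block changed no call of a member gene in limma (9 and 12). For 3 of the 6 controls, the DEHP sample that correlated best with it carried the same number. A sign-flip test within replicate numbers, with the replicate block, kept the differences at 0.81 for Cox8b minus Cox8a and −0.43 for Cox4i2 minus Cox4i1 but with an exact adjusted p of 0.078 each, the smallest this test could give with both at its minimum. Values near 0 changed sign. Without control replicate 5 and DEHP replicate 6 together, Cox6a2 minus Cox6a1 was 0.0083, Cox8c 0.019 and Uqcrh −0.0079, and Uqcrh was −0.0038 with array weights. With single arrays left out, Atp5mc1 minus Atp5mc2 ran from −0.036 to 0.024, Atp5mc3 from −0.016 to 0.054, Cox6a1 from −0.040 to 0.0028, Cycs from −0.11 to 0.014, Uqcrc2 from −0.0027 to 0.069 and Uqcrh from −0.021 to 0.058. The cause of these changes was not tested. The median SE of the 40 genes, 0.06, limits what 6 arrays per group can show.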
